A study of Homo sapiens with 10 samples.

Results

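The BH3-only genes encode the pro-apoptotic branch of the BCL-2 family, and 8 of them were followed through the transcriptomes of venetoclax-sensitive and venetoclax-insensitive leukemia lines. These were BCL2L11 (encoding BIM), BMF, BID, BBC3 (encoding PUMA), PMAIP1 (encoding NOXA), BAD, BIK and HRK. They were chosen as a gene family, with earlier results of these data known, and all 8 were found by GENCODE 29 among the 63677 Ensembl gene identifiers of the count files.

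RS4;11 is an established leukemia line of B cell precursor origin, and venetoclax (VEN) is an inhibitor of the anti-apoptotic protein BCL-2. In the study, 5 VENins lines were selected from RS4;11 in parallel under stepwise increasing VEN, and 5 VENsens lines were carried along with the solvent DMSO. Only the VENins lines met the drug, up to a wash ahead of each assay, so acquired insensitivity and recent exposure cannot be told apart. All 10 lines go back to a single parental line, and 1 RNA library was made from each. Differences between lines of a group therefore reflect separate cultures of 1 cell line, with no repeat library within a line.

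BH3-only proteins share a short helix, the BH3 domain, with which they bind the groove of the anti-apoptotic proteins BCL-2, BCL-XL, BCL-W, MCL-1 and A1. Some of them, BIM and BID above all, can also engage the effectors BAX and BAK, which then permeabilise the outer mitochondrial membrane. In lymphoid cells, BIM held by BCL-2 is known as a main store of pro-apoptotic protein, and BH3-mimetic drugs such as VEN occupy the groove in its place.

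The libraries held 20631907 to 28323643 counts on genes in VENsens lines and 21145316 to 25394653 in VENins lines. Over all genes VENins line 5 lay farthest from the other lines of its group, with a chi-square over its degrees of freedom of 13.2 to 14.2 against each of them, where all other pairs in either group had at most 9.72. Levels are given as CPM, a gene's counts relative to its library's total, scaled by TMM, which evens out differences in library composition. The identity of the cells was checked against marker genes. Of 17 B cell precursor markers, 15 had a mean above 1 CPM and their summed level ran from 4814 CPM in VENins line 4 to 5695 CPM in VENins line 5, with TCF3 the most abundant. CD24 was listed at 0 in every library, and CD34 did not exceed 0.0969 CPM. The 0 of CD24 may come from the annotation used for counting, which was not tested, so its absence cannot be read from it. Of 12 myeloid markers, 3 had a mean above 1 CPM, led by CSF1R, the list summed to at most 21.0 CPM, and S100A8 and S100A9 were at 0. Of 9 T cell markers, LCK alone had a mean above 1 CPM, the remaining 8 summed to at most 1.30 CPM, and CD8A and TRBC2 were at 0. The B cell factor gene PAX5 differed between the groups, averaging 783 ± 42.9 CPM over VENsens and 631 ± 34.7 CPM over VENins lines (SD, n = 5 in either group), and its log2 fold change was -0.31 (adjusted p = 0.0272 in edgeR's quasi-likelihood test). Its part in the values of the BH3-only genes was not tested.

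No BH3-only gene passed the test between VENins and VENsens lines, but BCL2L11 and BMF were lower and BID was higher in every VENins line than in every VENsens line. All genes entered 1 fit of edgeR's quasi-likelihood test that includes the line number, and adjustment was over 16756 tested genes. The study names a paired analysis with DESeq2 and does not say which lines were paired, so DESeq2 is given beside edgeR. HRK lay under the filter on low counts, so 7 of the 8 members were tested. Of these 7, 0 had an adjusted p under 0.05, against 33 of all tested genes (0.197%). An unadjusted p under 0.05 was reached by 3 members, 1 higher and 2 lower in VENins lines, while 16.2% of all tested genes were below that value. Levels of all VENins lines lay below those of all VENsens lines in 2 members and in 2.3% of all tested genes, and above them in 1 member and in 2.36%. DESeq2 called 1 member with the line number in the model, BMF (1.69% of the genes to which it gave an adjusted p), and 2 without it, BMF and BCL2L11 (6.05%). EdgeR with no filter on low counts called BMF as well (2.02% of the genes). In bulk RNA, less of a transcript per cell and fewer cells that carry it cannot be told apart.

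**Figure D1:**
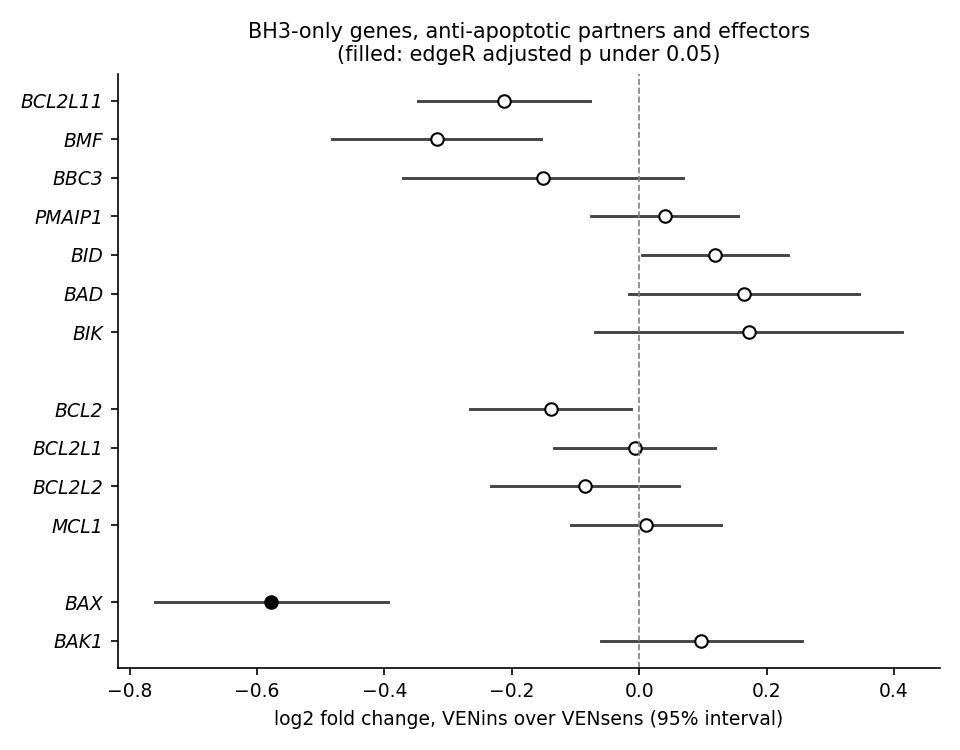
Log2 fold changes of VENins over VENsens lines with their 95% intervals for the 7 tested BH3-only genes (top), 4 anti-apoptotic genes (middle) and 2 effectors (bottom). Filled points have an edgeR adjusted p under 0.05, which is the case for BAX alone, and the intervals of BCL2L11, BMF, BID, BCL2 and BAX lie on 1 side of the dashed line at 0.

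BCL2L11 (ENSG00000153094, chromosome 2) and BMF (ENSG00000104081, chromosome 15) encode BH3-only proteins that dynein light chains tether to the cytoskeleton. Their promoters are shown because both transcripts were lower in all VENins lines. The sequences are the 250 bases before the transcription start in RefSeq (build GRCh38.p14), chr2:111120664-111120913 on the plus strand for BCL2L11 and chr15:40108880-40109129 on the minus strand for BMF, the more upstream of its 2 listed starts. The last 13 bases of the BMF window lie in an exon of BMF in GENCODE 29, and the BCL2L11 window holds 0 exon bases of BCL2L11 but lies inside the gene, whose outermost start in GENCODE 29 is upstream, at 111119378. Capitals mark matches to the motifs searched on both strands, which do not overlap here.
BCL2L11: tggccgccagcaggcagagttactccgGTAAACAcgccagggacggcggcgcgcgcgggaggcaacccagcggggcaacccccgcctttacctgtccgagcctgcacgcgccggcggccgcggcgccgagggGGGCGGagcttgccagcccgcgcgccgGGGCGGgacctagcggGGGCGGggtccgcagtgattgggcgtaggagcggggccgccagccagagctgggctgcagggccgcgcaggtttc
BMF: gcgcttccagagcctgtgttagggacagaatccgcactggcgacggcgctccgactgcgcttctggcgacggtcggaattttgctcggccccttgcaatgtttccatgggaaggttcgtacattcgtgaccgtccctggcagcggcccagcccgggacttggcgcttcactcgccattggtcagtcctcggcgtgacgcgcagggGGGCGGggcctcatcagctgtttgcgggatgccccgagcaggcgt
The motifs were the forkhead core GTAAACA, bound by FOXO factors, the E-box CACGTG, the cyclic AMP response element TGACGTCA, the AP-1 site TGACTCA and the GC box GGGCGG. In the BCL2L11 window, GTAAACA begins 223 bases before the start, and GGGCGG begins at 118, 91 and 75 bases. In the BMF window, GGGCGG begins 45 bases before the start. Both windows are rich in CpG, with 34 in BCL2L11 and 26 in BMF against a median of 11 over all 35116 promoter windows. This is not particular to them: with 1 window per member, PMAIP1 had 36, HRK 22, BAD 17, and BBC3 and BID 4 each. GTAAACA was found in 2.98% of all windows, and among the 7 members in the table BCL2L11 alone had it. GGGCGG was in 42.6% of all windows and in a window of 6 members, CACGTG in 6.34% and in windows of BBC3 and BID, TGACTCA in 4.2% and in that of BBC3, and TGACGTCA in 1.65% and in none. BIK was not among the members matched. A match of letters describes the sequence and does not show that a factor binds there.

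BCL2L11 had 43.0, 46.8, 41.2, 46.7 and 43.6 CPM in VENsens lines 1 to 5, and 39.3, 37.6, 40.0, 39.1 and 35.1 CPM in VENins lines 1 to 5. The groups did not overlap, VENins line 5 was the lowest library, and the highest VENins line and the lowest VENsens line stood close together. The means were 44.3 ± 2.44 and 38.2 ± 1.97 CPM (SD, n = 5 in either group). The log2 fold change was -0.21 (standard error 0.06, 95% interval -0.35 to -0.08), and missed the threshold (adjusted p = 0.138 in edgeR). BCL2L11 shares 727 exon bases with MIR4435-2HG on the opposite strand. The kit keeps no strand, but MIR4435-2HG had only 2 to 11 counts per library, against 805 to 1171 of BCL2L11.

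BMF had 60.4, 74.8, 49.5, 51.5 and 53.01 CPM in VENsens lines 1 to 5, and 49.0, 46.4, 46.3, 40.2 and 47.9 CPM in VENins lines 1 to 5. VENsens line 2 stood well above the other lines and VENins line 4 below them. The groups did not overlap, although VENins line 1 and VENsens line 3 almost met. The means were 57.8 ± 10.3 and 46.0 ± 3.38 CPM (SD, n = 5 each), so the VENsens lines were the more variable. Of the 7 tested members, BMF had the most negative log2 fold change, -0.32 (standard error 0.08, 95% interval -0.48 to -0.15). It did not pass in edgeR (adjusted p = 0.0878), and it passed in DESeq2 with the line number (adjusted p = 0.0272), in DESeq2 without it (adjusted p = 0.0259) and in edgeR with no filter on low counts (adjusted p = 0.00113). Over all 23 alternatives the adjusted p of BMF ran from 0.00113 to 0.486, the highest without pair 2, where the log2 fold change was -0.22. BMF shares 461 exon bases with BMF-AS1 on the opposite strand, which had 0 counts.

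**Figure D2:**
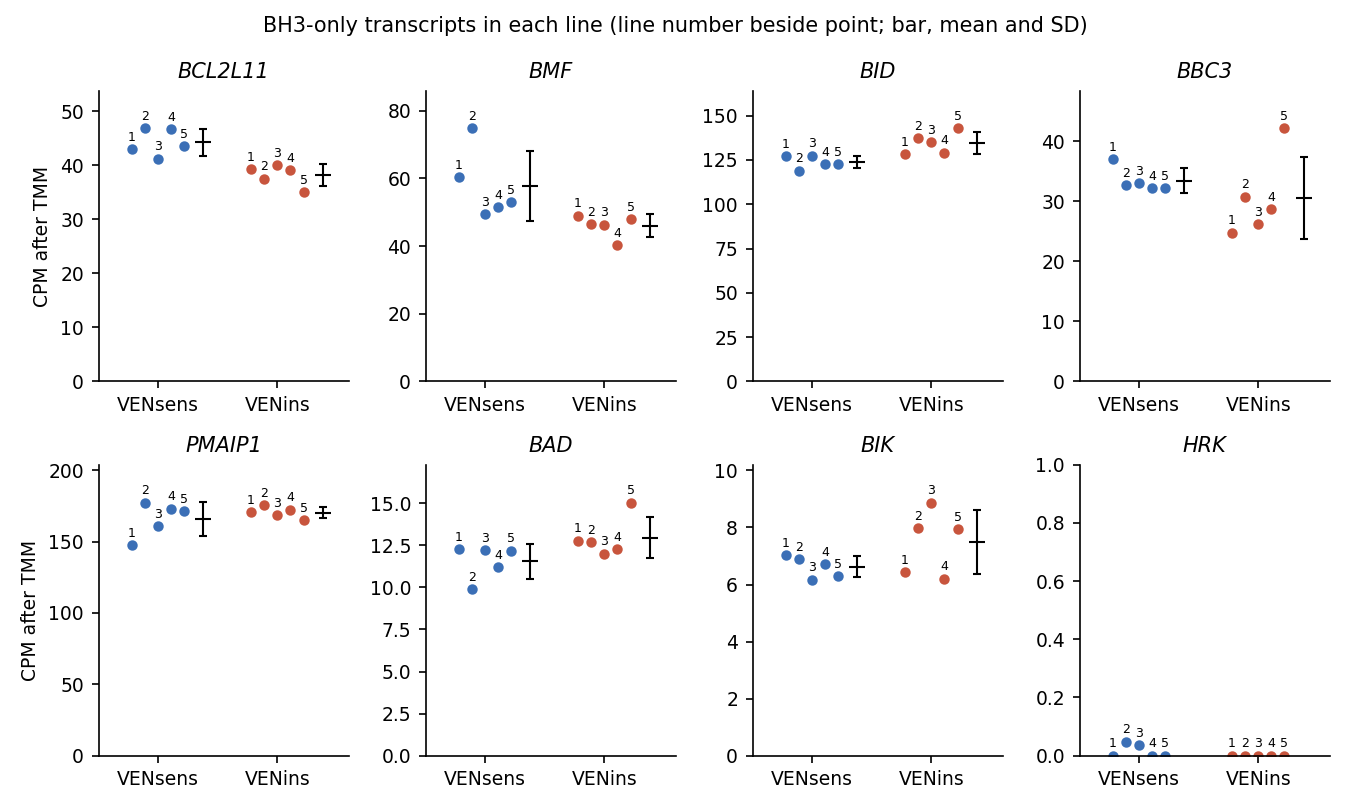
CPM after TMM of the 8 BH3-only genes in each of 5 VENsens (blue) and 5 VENins (red) lines, with the line number beside each point and the group mean and SD as a bar. All VENins lines lie below all VENsens lines for BCL2L11 and BMF and above them for BID, VENins line 5 stands apart for BBC3, and HRK is near 0 in every line.

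BID (ENSG00000015475, chromosome 22) encodes the protein that caspase-8 cleaves to link death receptors to mitochondria. It had 127.1, 119.0, 127.5, 122.7 and 122.7 CPM in VENsens lines 1 to 5, and 128.1, 137.4, 135.0, 129.2 and 142.8 CPM in VENins lines 1 to 5. The groups did not overlap, but VENsens lines 1 and 3 came close to VENins lines 1 and 4, and VENins line 5 was the highest. The means were 124 ± 3.53 and 135 ± 6.07 CPM (SD, n = 5 in either group). The log2 fold change was 0.12 (standard error 0.05, 95% interval 0.0038 to 0.23), and did not pass (adjusted p = 0.294 in edgeR).

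BBC3 (ENSG00000105327, chromosome 19) encodes PUMA, which binds all anti-apoptotic members and is a target of p53 and FOXO3. Its levels were 37.1, 32.8, 33.0, 32.2 and 32.2 CPM in VENsens lines 1 to 5, and 24.8, 30.8, 26.2, 28.8 and 42.2 CPM in VENins lines 1 to 5. VENins lines 1 to 4 lay below every VENsens line, while VENins line 5 was the highest of all 10 libraries, so the groups overlapped. The log2 fold change was -0.15 (standard error 0.10, 95% interval -0.37 to 0.07) and did not pass (adjusted p = 0.496 in edgeR). It stayed below 0 in 23 of 23 alternatives. With the trends on gene length and GC content taken out it was -0.20 (adjusted p = 0.0888 in edgeR). Its size depended on single lines. Without pair 5 it was -0.29 (adjusted p = 0.134 in edgeR), and without pair 1 it was -0.05 (adjusted p = 0.857 in edgeR). Leaving out VENins line 5 alone, with no term for the line number, gave -0.27 and passed (adjusted p = 0.0403 in edgeR). This setting was chosen after the data were seen, and over all 23 alternatives the adjusted p of BBC3 ran from 0.0403 to 0.857.

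PMAIP1 (ENSG00000141682, chromosome 18) encodes NOXA, which binds MCL-1 and A1. It had 148, 177, 161, 173 and 171 CPM in VENsens lines 1 to 5, and 170, 176, 168, 172 and 165 CPM in VENins lines 1 to 5. The groups overlapped, the VENins lines stood closer to each other than the VENsens lines, and VENsens line 1 was the lowest. The log2 fold change was 0.04 (standard error 0.05, 95% interval -0.08 to 0.16; adjusted p = 0.772 in edgeR). Its sign turned without pair 1, without VENsens line 1 alone, and with the trends on gene length and GC content taken out.

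BAD and BIK, whose proteins neutralise anti-apoptotic members without acting on BAX themselves, had the fewest counts of the tested members. BAD (ENSG00000002330, chromosome 11), which survival kinases phosphorylate to hold it at 14-3-3 proteins, ranged from 9.88 to 12.3 CPM in VENsens and from 12.0 to 15.03 CPM in VENins lines. The groups overlapped, and the log2 fold change was 0.16 (95% interval -0.02 to 0.35; adjusted p = 0.356 in edgeR). It was 0.10 without VENins line 5 and 0.11 with the trends on gene length and GC content taken out. BAD shares 404 exon bases with GPR137 on the opposite strand, which had 271 to 495 counts per library against 204 to 346 of BAD, so without strand its level is uncertain. BIK (ENSG00000100290, chromosome 22) ranged from 6.16 to 7.03 CPM in VENsens and from 6.21 to 8.87 CPM in VENins lines. VENins lines 2, 3 and 5 lay above all VENsens lines, VENins lines 1 and 4 among them, and the log2 fold change was 0.17 (95% interval -0.07 to 0.41; adjusted p = 0.478 in edgeR). It was 0.11 without VENins line 3 and 0.08 without pair 3.

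HRK (ENSG00000135116, chromosome 12), known chiefly from neurons, was not detectable at this depth. It had 1 count each in VENsens lines 2 and 3 and 0 in the other 8 libraries, where a count of 0 allows up to 3 counts, or 0.118 to 0.142 CPM depending on the library, for counting error only. No fold change is given.

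Levels of different genes were compared per length, as CPM per kilobase of all exons of the gene in GENCODE 29. Bases shared with other genes, as in BAD, BMF and BCL2L11, count toward this length, although reads there may have been set aside as ambiguous. On this scale PMAIP1 was the most abundant member, with 74.3 ± 5.34 in VENsens and 76.2 ± 1.83 CPM per kilobase in VENins lines (SD, n = 5 each). BID followed with 27.8 ± 0.794 and 30.3 ± 1.37 CPM per kilobase. PMAIP1 was above BID, and BID above every other member, in all 10 lines without overlap. BBC3, BMF, BIK, BAD and BCL2L11 came next, with means over the 10 lines from 10.1 down to 6.19 CPM per kilobase. The ranges of neighbours in that order overlapped, with BBC3 above BMF in 7 of 10 lines, BMF above BIK in 9, BIK above BAD in 5 and BAD above BCL2L11 in 8. BBC3 and BMF both lay above BCL2L11 in all 10 lines without overlap. With the longest protein-coding transcript as the length, 5 of 8 members kept their rank, the ranges of BMF and BCL2L11 overlapped, and BIK took the rank of the lowest detected member at 7.40 CPM per kilobase.

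**Figure D3:**
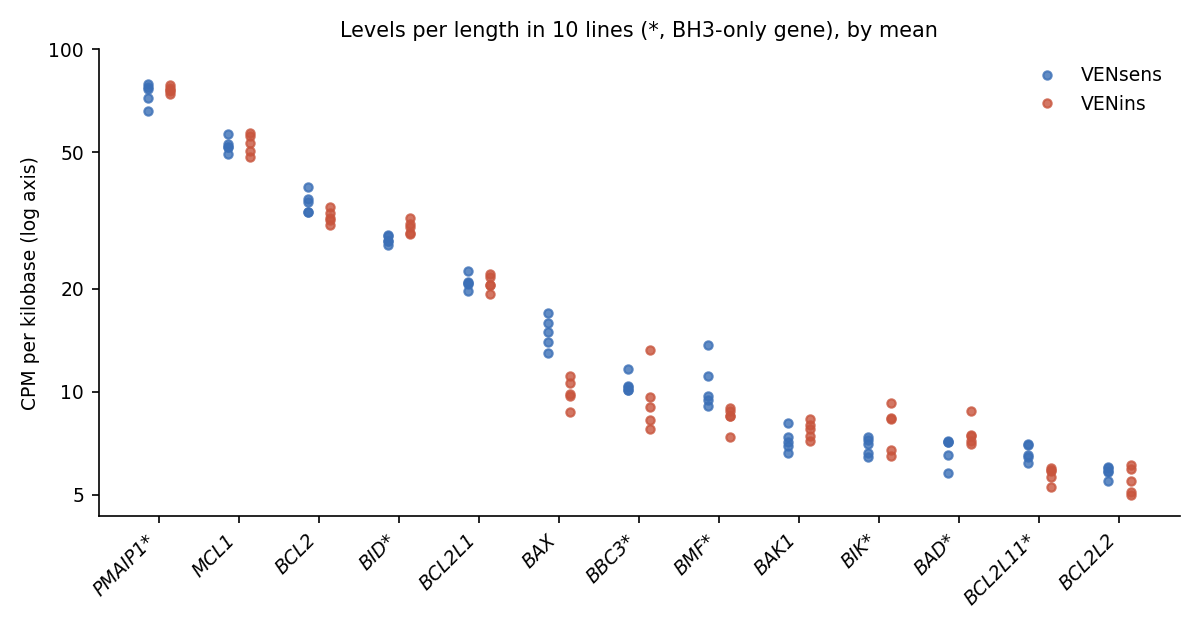
CPM per kilobase (log axis) of BH3-only genes (asterisk), anti-apoptotic genes and effectors with a level above 1 in every line, in 5 VENsens (blue) and 5 VENins (red) lines, ordered by the mean of all 10. PMAIP1 stands highest and BID is the next BH3-only gene, while BBC3, BMF, BIK, BAD and BCL2L11 overlap with their neighbours.

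As a share of the summed BH3-only level per kilobase, PMAIP1 made up 51.7% ± 2.33 in VENsens and 52.4% ± 2.02 in VENins lines, and BID 19.4% ± 1.17 and 20.8% ± 0.428 (SD, n = 5 each). The share of BCL2L11 was 4.63% ± 0.153 and 3.94% ± 0.293, and that of BMF 7.38% ± 1.17 and 5.79% ± 0.405. Most of the BH3-only RNA per length thus came from PMAIP1 and BID in both groups. The sum over the 8 members was 144 ± 4.66 CPM per kilobase in VENsens and 146 ± 3.91 in VENins lines, with overlapping ranges. Divided by the sum over 6 anti-apoptotic genes, it ran from 1.23 to 1.26 in VENsens lines, and in VENins lines it was 1.20, 1.32, 1.26, 1.32 and 1.42 in lines 1 to 5. The ratio was nearly constant among VENsens lines and more spread among VENins lines. VENins line 1 lay below the VENsens range and VENins lines 2 to 5 above it, line 3 only just. RNA levels do not give the amounts of the proteins.

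The genes for the proteins that BH3-only proteins bind were read from the same fit. Of the effectors, BAX fell in VENins lines, with 38.6, 33.6, 44.0, 36.1 and 41.1 CPM in VENsens lines 1 to 5 and 25.6, 28.7, 22.7, 25.1 and 27.5 CPM in VENins lines 1 to 5. The groups did not overlap. Its log2 fold change was -0.58 (standard error 0.09, adjusted p = 0.0128 in edgeR), and without pair 5 it was -0.58 but no longer passed (adjusted p = 0.0563 in edgeR). BAK1 was at 16.0 ± 1.22 and 17.1 ± 1.02 CPM (SD, n = 5 each) and did not pass (log2 fold change 0.10, 95% interval -0.06 to 0.26), and BOK was below the filter at 0.0436 to 0.439 CPM. Of the 6 anti-apoptotic genes, 4 were tested and 0 passed in edgeR (0.197% of all tested genes) or in DESeq2, with 1 at an unadjusted p under 0.05 in edgeR (16.2% of all tested genes). BCL2, the target of VEN, was at 421 ± 29.7 and 382 ± 18.1 CPM (log2 fold change -0.14, 95% interval -0.27 to -0.01; adjusted p = 0.267 in edgeR), and its groups overlapped. With the trends on gene length and GC content taken out it was -0.06 (adjusted p = 0.495 in edgeR). MCL1, which sequesters BIM and NOXA, had a log2 fold change of 0.01 (95% interval -0.11 to 0.13), BCL2L1 one of -0.01 (95% interval -0.13 to 0.12) and BCL2L2 one of -0.08 (95% interval -0.23 to 0.06). Over the 23 alternatives the log2 fold change of BCL2L2 ran from -0.12 to -0.04, and MCL1 and BCL2L1 took both signs. BCL2A1 and BCL2L10 stayed under 0.123 CPM in every line and were not tested.

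Genes that act on BH3-only genes or proteins were taken from lists made by name, and 0 genes of these lists had an adjusted p under 0.05 in edgeR. DESeq2 with the line number called 2 of them, DYNLL1 and YWHAH, and 1.69% of the genes to which it gave an adjusted p. With no term for the line number DESeq2 called 4 kinases, tethers and proteases and 2 p53 targets. It also called 1 FOXO target and 1 further gene with a BH3 motif, and 6.05% of the genes given an adjusted p. Among 26 tested kinases, tethers and proteases, 6 had an unadjusted p under 0.05 in edgeR (23.1%, beside 16.2% of all tested genes). All 6 had a log2 fold change above 0, as 7.79% of all tested genes did at such a p, and the list's median was 0.06 beside 0.0035 over all tested genes. DYNLL1, the dynein light chain that holds BIM, had 138, 139, 156, 145 and 146 CPM in VENsens lines 1 to 5, and 160, 178, 166, 164 and 182 CPM in VENins lines 1 to 5. YWHAH, a 14-3-3 protein gene of the family that holds BAD, ranged from 193 to 205 CPM over VENsens and from 210 to 244 CPM over VENins lines. Neither gene's groups overlapped, and the log2 fold changes were 0.23 for both (adjusted p = 0.0878 for DYNLL1 and 0.0842 for YWHAH in edgeR). Both passed with no term for the line number (adjusted p = 0.0452 and 0.0382 in edgeR), as did 0.889% of all tested genes. Over the 23 alternatives adjusted p ran from 0.00226 to 0.486 for DYNLL1 and from 0.00109 to 0.484 for YWHAH. DYNLL1 passed in 8 of them and YWHAH in 9. DYNLL2, the other dynein light chain gene of the list, averaged 203.8 CPM over VENsens and 200.5 CPM over VENins lines. Its log2 fold change was -0.02 (adjusted p = 0.858 in edgeR). The other tested 14-3-3 genes of the list had log2 fold changes from 0.01 for YWHAG to 0.12 for YWHAQ, and did not pass. PIM3, a kinase that phosphorylates BAD, had a log2 fold change of 0.28 (95% interval 0.09 to 0.46) with overlapping groups and VENins line 5 highest at 50.7 CPM, and it passed in 2 of 23 alternatives.

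Of 12 tested transcription factors that induce BH3-only genes, 1 had an unadjusted p under 0.05 in edgeR (8.33%, beside 16.2% of all tested genes). This was DDIT3, which encodes CHOP, an inducer of BCL2L11 and BBC3 under stress, which averaged 57.1 ± 4.62 CPM over VENsens and 65.2 ± 5.16 CPM over VENins lines (SD, n = 5 in either group; log2 fold change 0.19, 95% interval 0.05 to 0.34). E2F1 and FOXO4 followed by p, with log2 fold changes of 0.13 (95% interval -0.02 to 0.28) and -0.14 (95% interval -0.32 to 0.03). Without VENsens line 2 these were 0.06 and -0.09, and without VENins line 4 that of FOXO4 was -0.09. They were larger without other pairs, at 0.20 for E2F1 without pair 1 and -0.22 for FOXO4 without pair 3. The list's median was 0.02, with 6 log2 fold changes above 0 (51.1% of all tested genes) and 6 below. Of 3 tested repressors, MIR17HG, the host of microRNAs that act on BCL2L11, EZH2 and BMI1 had log2 fold changes of -0.09, 0.02 and -0.02, and 0 had an unadjusted p under 0.05. MIR17HG and BMI1 took both signs over the alternatives.

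Targets that these factors have outside the BCL-2 family were listed beside them. Of 10 tested FOXO targets, 9 had a log2 fold change below 0, as 48.9% of all tested genes did, and 3 of them an unadjusted p under 0.05 in edgeR (8.38% of all tested genes in this direction). The list's median was -0.12, and in 7 of 10 targets p was above 0.05. BCL6, a repressor that FOXO factors induce, ranged from 127 to 133 CPM over VENsens and from 111 to 122 CPM over VENins lines with no overlap (log2 fold change -0.16, 95% interval -0.28 to -0.05), and KLHL24 and PIK3IP1 had -0.19 and -0.26 with overlapping groups. That of KLHL24 was -0.10 without VENsens line 2 and -0.12 with the trends on gene length and GC content taken out. With no term for the line number 3 FOXO targets had an unadjusted p under 0.05 (18.2% of all tested genes), but KLHL24 was not among them. Of 20 tested p53 targets, 5 had an unadjusted p under 0.05 (25%, beside 16.2% of all tested genes), 4 with a log2 fold change above 0 and 1 below, and the median was -0.04. SESN1 ranged from 66.9 to 80.7 CPM over VENsens and from 69.5 to 112 CPM over VENins lines (log2 fold change 0.32, 95% interval 0.12 to 0.52), XPC had -0.22 (95% interval -0.37 to -0.06) and TNFRSF10B 0.16 (95% interval 0.04 to 0.29). Of 11 tested ATF4 and CHOP targets, 3 had an unadjusted p under 0.05 (27.3%, beside the same 16.2%), 1 with a log2 fold change above 0 and 2 below. The median was 0.07, and SLC7A11, PPP1R15A and CEBPB had log2 fold changes of -0.19, -0.13 and 0.26. That of CEBPB was 0.13 without VENins line 5 and 0.43 without pair 1 (adjusted p = 0.0493 in edgeR), and that of SLC7A11 was -0.10 with the trends on gene length and GC content taken out. Of 7 tested genes with a BH3 motif outside the 8 members, 3 were lower without overlap (2.3% of all tested genes) and 1 had an unadjusted p under 0.05, HUWE1, the ligase that marks MCL-1 for degradation (log2 fold change -0.17, 95% interval -0.29 to -0.06, and -0.05 with the trends on gene length and GC content taken out). BNIP1 and BCL2L13 had 0.17 and -0.10, with 0.10 for BNIP1 without VENsens line 2 and -0.04 for BCL2L13 with these trends taken out. Of the genes named here, SESN1 passed in 4 of 23 alternatives, HUWE1 in 3, and XPC, BCL6 and CEBPB in 2 each.

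The genes whose levels ran most like those of BMF and BCL2L11 were found by the root mean square difference of log2 CPM, each gene centred on its own mean, over the 10 lines and 11137 protein-coding genes. BMF, which had the largest SD of log2 CPM among the members (0.24), was nearest to MR1, GPRASP2 and NAV1, at differences of 0.10 each. All 3 were highest in VENsens line 2, as BMF was. BCL2L11, with an SD of 0.13, was nearest to FNBP1, GIGYF2 and TLR7, at differences of 0.04 each. All 3 were lowest in VENins line 5, as BCL2L11 was. The neighbours were chosen by their profile over these same lines, so shared extremes and a shared sign follow from the choice. The log2 fold changes of these 6 genes ran from -0.29 to -0.18, and 0 of them passed (adjusted p from 0.0974 to 0.33 in edgeR). With the trends on gene length and GC content taken out, those of MR1, NAV1, FNBP1 and GIGYF2 were -0.12, -0.12, -0.14 and -0.09, and that of GPRASP2 was -0.18 without pair 2. Over the 23 alternatives FNBP1 passed in 7, GIGYF2 in 2, and NAV1 and TLR7 in 1 each.

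**Figure D4:**
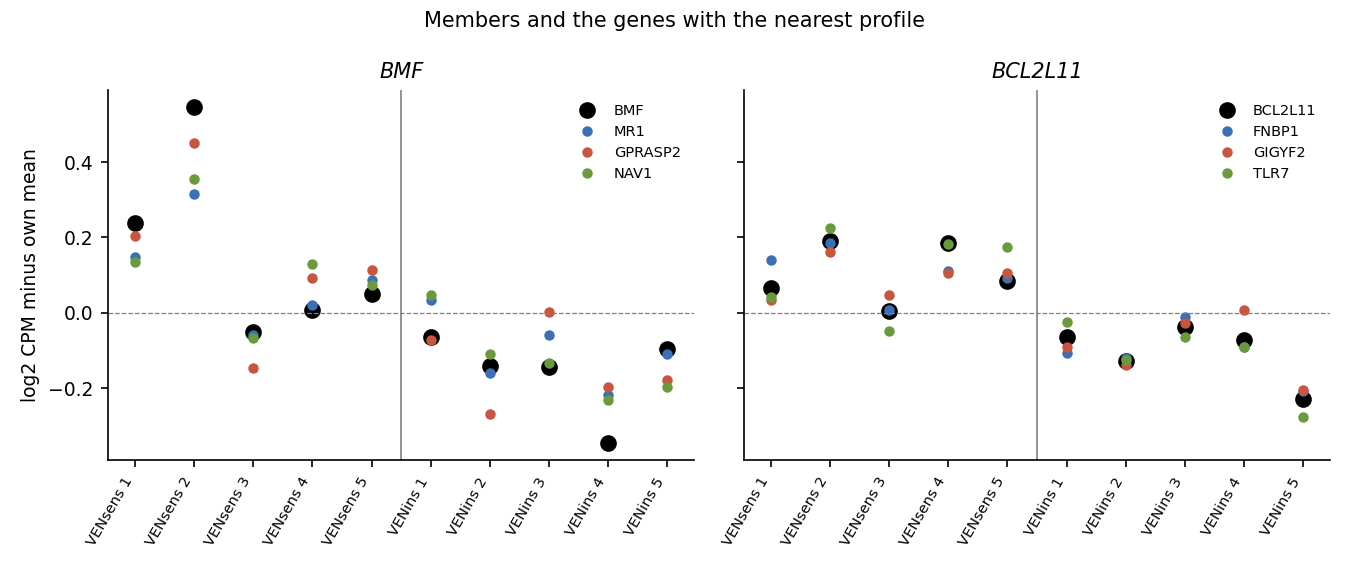
Log2 CPM minus each gene's own mean in 10 lines for BMF (left, black), BCL2L11 (right, black) and the 3 genes with the nearest profile to each (colours). BMF and its neighbours peak in VENsens line 2, and BCL2L11 and its neighbours are lowest in VENins line 5.

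The size of the members' differences was compared over 13 alternative settings and 10 more that leave out single libraries. The log2 fold change of BMF ran from -0.38 to -0.22, that of BCL2L11 from -0.26 to -0.15 and that of BID from 0.09 to 0.15. These 3 kept their sign in 23 of 23, as did BBC3, BAD and BIK, and PMAIP1 kept it in 20. VENins line 5 held the lowest level of BCL2L11 and the highest of BID, BBC3 and BAD. Without it, and with no term for the line number, their log2 fold changes were -0.18, 0.10, -0.27 and 0.10, against -0.21, 0.12, -0.13 and 0.16 with it. The log2 fold change of BAX ran from -0.66 to -0.48 over the alternatives.

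**Figure D5:**
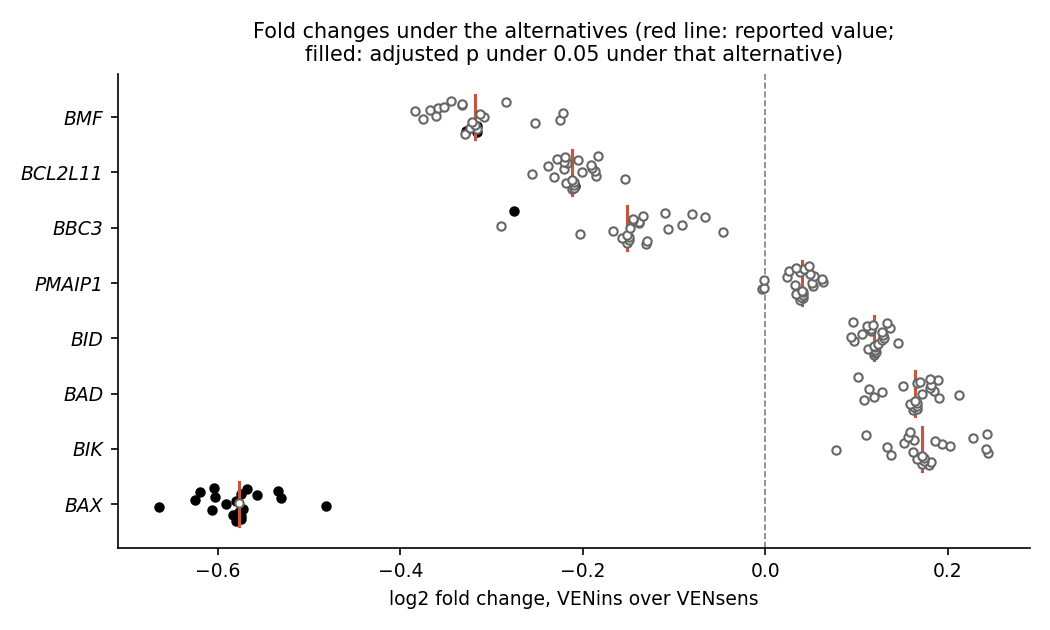
Log2 fold change of VENins over VENsens lines for the 7 tested BH3-only genes and BAX under 23 alternative settings (points, filled where the adjusted p was under 0.05) beside the reported value (red line). BMF, BCL2L11 and BBC3 are filled in 3, 1 and 1 settings, BAX in 22, and points of PMAIP1 reach both sides of the dashed line at 0.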

How the data were processed

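The authors deposited, for each of the 10 RNA-Seq libraries, the count of reads on each gene without normalization. Libraries were made with TruSeq RNA v2, which does not mark strand, and sequenced as single-end reads. The submitters' processing notes name bcl2fastq 2.20.0.422, Bowtie2 2.3.5.1, SAMtools 1.9, HTSeq 0.9.1 and hg19/GRCh37. Bowtie2 does not split reads across introns by itself, so reads over exon junctions may be missing from counts of genes with short exons. Of the reads, 52.7% to 54.2% were counted on genes, 24.6% to 26.1% had a low alignment quality and 3.69% to 3.98% fell on more than 1 gene. Lines of a group differed by more than counting error (chi-square over its degrees of freedom from 1.92 to 14.2, the 4 highest in pairs with VENins line 5).

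Names and exon lengths came from GENCODE 29 (GRCh38), which named 52526 identifiers, and the rest carried 0.907% of the counts. Lengths may differ from those of the authors' annotation. Tests were run in R 4.3.3, using edgeR 4.0.16 (filterByExpr with a minimum count of 10 and total of 15, TMM, quasi-likelihood F test with line number and condition, Benjamini-Hochberg threshold 0.05) and DESeq2 1.42.0 as an alternative. Standard errors and 95% intervals follow from the F statistic, and a prior count of 2 was added for log2 CPM. The fits were tested on simulated counts. Plots were drawn with matplotlib 3.10.9.

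The lists, as the members, were chosen with earlier results of these data known. Of 154 symbols in the lists, TRAC was not matched. Named were all members, anti-apoptotic genes and effectors, from each other list the genes with an adjusted p under 0.05 and the 3 with the smallest p, and the 3 genes with the nearest profile to BCL2L11 and to the member with the largest SD. PAX5 and further markers were named from the marker lists after their values were seen, as were DYNLL2, YWHAG and YWHAQ from theirs. Alternatives were no line number in the model, DESeq2 with and without it, RLE size factors, library size alone, no filter, at least 10 counts in every library, removal of each library's trends with length and GC content (splines with 4 degrees of freedom, 97.4% of tested genes), each pair left out and, added after the values were seen, each library left out. Promoters came from the RefSeq table, in which 7 of 8 members were matched.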

Additional observations from a re-analysis of the deposited data

Results flagged for a closer look

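In 26 groups of 5 lines, made of the tested BH3-only, anti-apoptotic and effector genes in either condition, the line farthest from the others was compared with Dixon's critical value of 0.71. In 2 of them its gap exceeded that share of the range, and chance alone flags about 1 in 20 groups. BBC3 was at 37.1 CPM in VENsens line 1, against 32.2 to 33.0 CPM in the other VENsens lines. BAD was at 15.03 CPM in VENins line 5, against 12.0 to 12.8 CPM in the other VENins lines. The causes were not tested.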

How the results depend on the processing

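Of 919 values of 40 named genes under the alternatives, 851 kept their direction and their side of the threshold, 48 passed only under the alternative, 1 no longer passed and 19 changed sign. The sign changes were all in genes that did not pass. The cause was not tested for any of these. GPRASP2 had the lowest levels of these genes, at 2.615 to 4.36 CPM.

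The line numbers did not pair the libraries: deviations from the group means correlated between same-numbered lines at -0.103 to 0.028, and 0 of 5 VENins lines correlated best with their own number. The study's methods name a paired analysis but not the pairs, so pairing by line number is an assumption. Over all genes, 33 were called with the replicate block and 149 without it. DESeq2 called 217 with the block and 739 without it, edgeR called 664 with no filter on low counts, and 143 after length and GC trends were removed with the block kept. Leaving out pairs or single libraries gave 6 to 783 genes.

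BH3-only genes called were 0 in edgeR and were also 0 without the block. They were 1 in DESeq2 with the block, 2 in DESeq2 without it, 1 with no filter, and 0 to 1 with a pair or library left out, where BBC3 passed without VENins line 5. Of the anti-apoptotic and effector genes 1 was called, and 0 to 1 with a pair or library left out, since BAX missed the threshold without pair 5. With no block, an unadjusted p under 0.05 was reached by 8 kinases, tethers and proteases, 5 p53 targets, 3 FOXO targets, 2 ATF4 and CHOP targets and 2 other genes with a BH3 motif, against 6, 5, 3, 3 and 1 with it. These lists held 26, 20, 10, 11 and 7 tested genes. Over all tested genes the share was 18.2% with no block and 16.2% with it. Of the members' ranks by level per length, 5 were kept with the longest transcript as the length, 6 in VENsens lines alone and 8 in VENins lines alone.

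Under the correction for length and GC content, the log2 fold change of PMAIP1 was -0.0033 and that of BCL2L1 0.0020. With pairs or libraries left out, log2 fold changes of genes that changed sign ran from -0.0014 to 0.064 for PMAIP1, -0.051 to 0.025 for BCL2L1, -0.036 to 0.042 for MCL1, -0.21 to 0.033 for MIR17HG and -0.085 to 0.043 for BMI1.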

Other observations

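In VENins line 4, some markers of early B cells lay at either end of their ranges over the 10 lines. DNTT, the terminal transferase of antigen receptor joining, was at 27.3 CPM there and at 1.08 to 8.31 CPM in the other 9 lines, and BLNK, an adaptor of precursor B cell receptor signalling, was at 9.55 CPM against 1.18 to 3.94 CPM. In the same line VPREB3, VPREB1, CD79A and TCF3 were the lowest of all lines at 163, 548.1, 496 and 717 CPM, and the sum over the B cell precursor markers was the lowest at 4814 CPM. In VENins line 5, VPREB3 and IGLL1, components of the precursor receptor's assembly, were the highest of all lines at 317 and 899 CPM, and RAG1 was the lowest at 130 CPM. Neither DNTT nor BLNK passed between the groups (adjusted p = 0.79 and 0.939 in edgeR). In VENins lines 1, 2 and 5, DNTT was at 1.08, 1.43 and 1.96 CPM, below the lowest VENsens line at 3.05 CPM. BLNK was at 1.27, 1.96 and 1.18 CPM in the same lines, below the lowest VENsens line at 2.12 CPM. In VENins line 3 both genes lay within the VENsens range. These genes were picked after their values were seen.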
